A study of Mus musculus with 2 samples.

Results

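Mesothelial marker genes were followed on 2 Affymetrix arrays of mouse peritoneal macrophages, 1 array of cells transfected with a control siRNA and 1 of cells transfected with an HDAC9 siRNA. HDAC9 is a histone deacetylase of class IIa. The 10 genes Msln, Upk3b, Upk1b, Krt7, Krt8, Krt18, Krt19, Wt1, Lrrn4 and Gpm6a were chosen by name, and every probe set that the platform annotation assigns to 1 of them alone was taken. This gave 17 probe sets of 45037 on the table, and 10 genes of 18193 with a single symbol. The list was drawn up with earlier results of these arrays known, so its values are a description. Both groups were peritoneal macrophages of male C57BL/6 mice, harvested for RNA 48 h after transfection; neither the age of the mice nor any pooling of animals is stated in the labels. The design asks how gene expression differs once HDAC9 is knocked down. With 1 array per group no difference could be tested or set against a spread between cultures.

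The mesothelium is the single layer of flat epithelial-like cells that lines the peritoneal cavity and covers its organs. It arises from mesoderm, and its cells carry an unusual mixture of epithelial proteins, such as keratins and uroplakins, and mesenchymal ones, such as vimentin and the transcription factor WT1. Peritoneal macrophages live in the fluid that this layer encloses. Macrophages are not known for making keratins or uroplakins. RNA from a whole culture does not show which cells held a transcript, and fewer cells of a type and less RNA per cell cannot be told apart.

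All 10 mesothelial genes gave signal above background on both arrays, and they are described in 2 groups. The groups were drawn from the differences themselves, with Msln placed beside the keratins because it too was lower. The counts by direction within them therefore only describe the split. The 4 keratin genes and Msln were lower on the HDAC9 siRNA array, in 7 of 7 probe sets, by 0.17 to 1.11 log2 units. The uroplakin genes, Wt1, Lrrn4 and Gpm6a were level or higher there, in 9 of 10 probe sets, with differences from -0.02 to 0.56. Over the 21955 named probe sets above background, 46.6% were lower on the HDAC9 siRNA array and 53.4% higher. At a threshold of 2-fold, 1 member probe set was lower, that of Msln, and 0 were higher, where 0.506% and 1.44% of all probe sets passed.

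**Figure D1:**
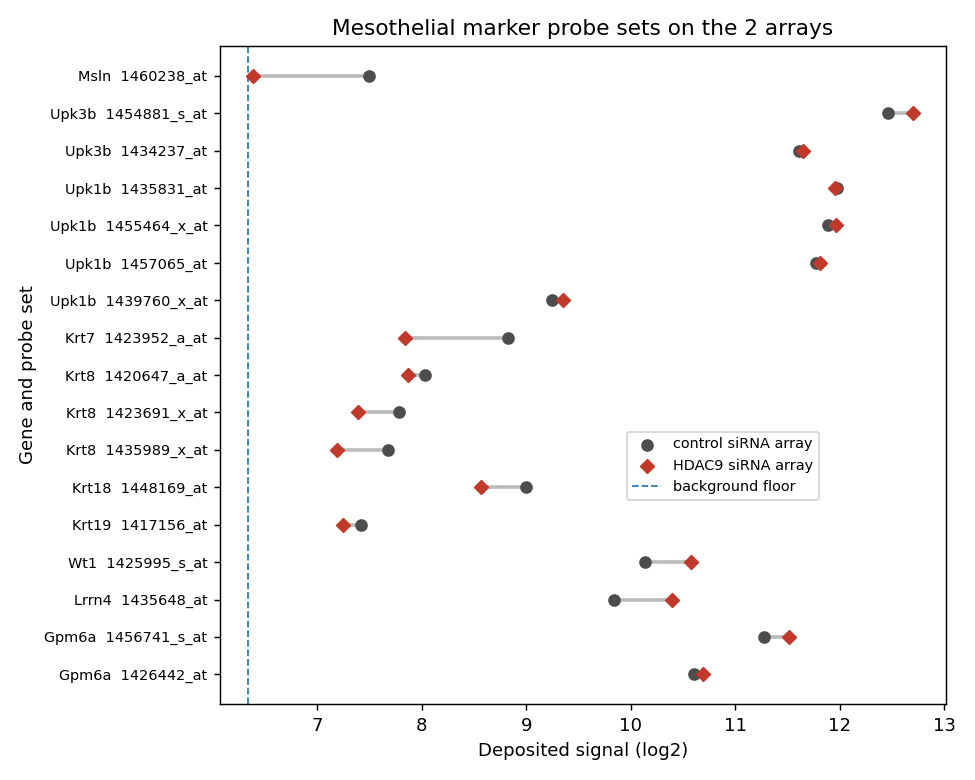
Deposited log2 signal (x axis) of each of the 17 probe sets (y axis, gene and probe set) on the control siRNA array (grey circles) and the HDAC9 siRNA array (red diamonds), with the background floor as a dashed line; there is 1 array per group and no error bar. The keratin and Msln probe sets lie between 6.39 and 9.00 with the red marker to the left, and the others lie between 9.25 and 12.7 with the markers close together or the red one to the right.

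The keratin promoters are shown because the keratin genes were lower together, and the Lrrn4 promoter because that gene had the largest difference in the other direction. Krt8 and Krt18, whose proteins pair into filaments, are near neighbours on mouse chromosome 15, with 2 listed genes between them, and Krt7 lies in the same keratin cluster with 31 listed genes between it and Krt8. Promoter sequences from RefSeq (GRCm38.p6) were matched for 6 of the 10 genes, Krt7, Krt8, Krt18, Upk3b, Lrrn4 and Gpm6a; those of Msln, Upk1b, Krt19 and Wt1 were not analysed here. The 250 bases before the start are printed 5′ to 3′ on the gene's strand. The positions are chr15:101412153-101412402 on the plus strand for Krt7, chr15:102004343-102004592 on the minus strand for Krt8, chr15:102027966-102028215 on the plus strand for Krt18 and chr2:132880863-132881112 on the minus strand for Lrrn4. Capitals mark AGGTCA, the half-site of nuclear receptors, and GGGCGG, the GC box, on either strand.
Krt7: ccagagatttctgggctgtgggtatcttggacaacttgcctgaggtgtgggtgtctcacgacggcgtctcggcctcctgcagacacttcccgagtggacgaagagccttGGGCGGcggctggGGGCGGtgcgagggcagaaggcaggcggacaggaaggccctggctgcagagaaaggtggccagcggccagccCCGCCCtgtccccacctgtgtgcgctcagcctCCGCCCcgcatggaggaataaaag
Krt8: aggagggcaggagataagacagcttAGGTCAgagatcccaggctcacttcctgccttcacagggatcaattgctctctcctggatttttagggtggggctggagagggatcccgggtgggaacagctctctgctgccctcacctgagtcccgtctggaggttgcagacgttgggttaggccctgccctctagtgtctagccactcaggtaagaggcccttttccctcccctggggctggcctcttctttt
Krt18: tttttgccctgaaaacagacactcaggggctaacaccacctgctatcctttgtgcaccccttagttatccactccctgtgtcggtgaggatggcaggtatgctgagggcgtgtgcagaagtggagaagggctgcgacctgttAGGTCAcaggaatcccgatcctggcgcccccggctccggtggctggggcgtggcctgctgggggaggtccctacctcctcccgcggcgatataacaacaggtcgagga
Lrrn4: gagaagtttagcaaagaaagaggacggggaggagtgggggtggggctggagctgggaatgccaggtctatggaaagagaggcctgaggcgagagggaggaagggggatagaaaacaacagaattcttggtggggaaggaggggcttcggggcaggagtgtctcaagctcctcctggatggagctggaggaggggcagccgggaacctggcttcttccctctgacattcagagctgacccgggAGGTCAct

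The 3 keratin promoters did not share a layout of these motifs. Krt7 held 4 GC boxes and 0 copies of AGGTCA, while Krt8 and Krt18 each held 1 AGGTCA and 0 GC boxes. Lrrn4 also held 1 AGGTCA, so among the printed promoters that motif was upstream of Krt8 and Krt18, which were lower, and of Lrrn4, which was higher. Upk3b, not printed, held it too and was higher (0.24 by its brightest probe set). Any part of the motif in the differences was not tested. In all, 4 of the 6 genes had AGGTCA (Krt8, Krt18, Upk3b and Lrrn4), against 14.0% of all 32851 promoter windows of this length, and 1 had GGGCGG, against 32.7%. Of the other motifs searched on both strands, GGAATG was found for 3 genes (Upk3b, Lrrn4 and Gpm6a; 12.6% of windows), GATAA for 3 (Upk3b, Krt8 and Krt18; 22.6%), TATAAA for 1 (Gpm6a; 12.4%) and CCAAT for 0 (33.8%). No matches overlapped in the members' windows (0 cases), and a match is a string of letters, not evidence of a bound site.

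Msln encodes mesothelin, a lipid-anchored glycoprotein of the mesothelial surface that binds the mucin MUC16. Its single probe set, 1460238_at, measured 7.49 (log2 signal) with the control siRNA and 6.39 with the HDAC9 siRNA. The second value lay 0.05 above the background floor of 6.34, so Msln was at the edge of detection there. The floor is the 95th percentile of the signals of olfactory and vomeronasal receptor probe sets, which stand for genes not expressed in these cells. The difference was -1.11, or 2.15-fold lower, the largest among the 10 genes. All named probe sets above background were divided by mean signal into 4 bins of equal size, and of those in the dimmest bin, where Msln belongs, 0.638% were as low or lower. That share is small in part by construction, since raising low signals to the floor caps the differences of probe sets close to it. With a higher background floor, the 99th percentile of the sensory receptor probe sets, the difference became a bound of -0.57, short of 2-fold. In rank the probe set moved from position 17062 of 45037, counted from the brightest, to position 23836.

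Keratins are the intermediate filament proteins of epithelial cells, and each filament pairs a type II chain (Krt7 or Krt8) with a type I chain (Krt18 or Krt19). All 6 keratin probe sets were lower on the HDAC9 siRNA array, and the median of the 4 genes was -0.31, against 0.03 over the 12107 genes above background. Krt7 stood apart from the other 3 keratins in size.

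Krt7, by probe set 1423952_a_at, measured 8.83 (log2 signal) with the control siRNA and 7.84 with the HDAC9 siRNA. Its difference of -0.99, or 1.99-fold lower, was just short of the 2-fold threshold that Msln passed. Of the probe sets in its signal bin, 0.729% were as low or lower. After centring, quantile normalization or loess Krt7 was past 2-fold, at -1.13, -1.07 and -1.06.

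Krt18, read by 1448169_at, had log2 signals of 9.00 and 8.56 on the control and HDAC9 siRNA arrays. It was 1.35-fold lower, and 4.57% of probe sets in its signal bin were as low or lower. Krt8, the usual partner of Krt18, was read by 3 probe sets that were all lower but differed in size. The brightest, 1420647_a_at, had log2 signals of 8.03 and 7.87, a difference of -0.17. The other 2, 1423691_x_at and 1435989_x_at, went from 7.78 to 7.39 and from 7.68 to 7.19, differences of -0.40 and -0.48. Names ending in _x_at mark probe sets with probes that can also match other transcripts, which applies to these 2 but not to the brightest one. Krt19, the type I keratin without a tail domain, had log2 signals of 7.42 and 7.25 by 1417156_at, a difference of -0.18.

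The sizes of Krt19 and of the brightest Krt8 probe set were below 0.29, the scatter of a single probe set. That scatter is the standard deviation of the disagreement between the 2 brightest probe sets of a gene, divided by the square root of 2, over 5671 genes. Many probe sets of the same signal bin were as low as these, 25.1% for Krt19 and 25.8% for Krt8.

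The uroplakins, membrane proteins best known from the urothelium of the bladder, were the brightest of the mesothelial markers and hardly differed between the arrays. Upk3b, a uroplakin of the mesothelium, had log2 signals of 12.5 with the control siRNA and 12.7 with the HDAC9 siRNA by 1454881_s_at. This probe set ranked 1304th and 1013th of 45037, within the top 2.90% and 2.25%. A rank places a probe set on its array and does not order transcripts, since probe sets differ in how strongly they hybridise. The second Upk3b probe set, 1434237_at, had 11.6 and 11.7. The differences were 0.24 and 0.04, both below the 0.29 scatter.

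Upk1b, a tetraspanin that partners uroplakins in membrane plaques, had 4 probe sets. The brightest, 1435831_at, had log2 signals of 12.0 on both arrays (difference -0.02). Probe sets 1455464_x_at and 1457065_at went from 11.9 to 12.0 and from 11.8 to 11.8, differences of 0.08 and 0.04. The dimmest, 1439760_x_at, had 9.25 and 9.35, a difference of 0.11. The sign of the brightest probe set turned under quantile normalization and loess (0.03 in both), so Upk1b had no direction. Its 4 probe sets spanned 0.13 log2 units, which made it the most evenly measured gene of the 10 with several probe sets.

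Wt1, Lrrn4 and Gpm6a were all higher on the HDAC9 siRNA array. Wt1 encodes a zinc finger transcription factor of the mesothelium and the kidney podocyte, and 1425995_s_at had log2 signals of 10.1 and 10.6. It was 1.36-fold higher, and 3.68% of the brightest bin of probe sets were as high or higher. Lrrn4 encodes a leucine-rich repeat membrane protein known from neurons and mesothelium. Its probe set 1435648_at had log2 signals of 9.84 and 10.4, a difference of 0.56 or 1.48-fold, the largest upward difference of the 10 genes. In its signal bin 5.05% of probe sets were as high or higher.

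Gpm6a, a membrane glycoprotein of the proteolipid protein family, had log2 signals of 11.3 and 11.5 by 1456741_s_at and of 10.6 and 10.7 by 1426442_at. The differences, 0.24 and 0.09, were within the single-probe-set scatter. In rank 1456741_s_at was in the top 7.13% and 5.88% of the arrays. With Upk3b and Upk1b, Gpm6a was thus 1 of 3 mesothelial genes with a probe set in the top 10% on both arrays, and 6 of the 17 probe sets were there. The ranks of the keratin probe sets began at the top 23.5% for the control siRNA and 28.3% for the HDAC9 siRNA.

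The 2 groups of members, drawn from the differences, also differed in brightness, the lower group being the dimmer. The 7 keratin and Msln probe sets had mean signals from 6.94 to 8.78, and the 10 others from 9.30 to 12.6, with no overlap. Direction did not split so cleanly: among the 10 others, Upk1b probe set 1435831_at was lower (-0.02) at a mean signal of 12.0. Over all probe sets the tendency was the opposite: 41.3% were lower in the bin that held 5 keratin probe sets, and 59.9% in the brightest bin, which held 8 member probe sets with 1 of them lower. The middle of the differences, from the 5th to the 95th percentile, was also wider at low signal, from -0.59 to 0.81 in the former bin and from -0.36 to 0.38 in the latter. Krt7, Krt18 and Msln lay below the 5th percentile of their bins and Wt1 above the 95th, while Lrrn4 was just inside it. In the dimmest bin, that of Msln, the floor caps the differences, which limits this comparison. The part of signal in the split of the members was not tested.

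**Figure D2:**
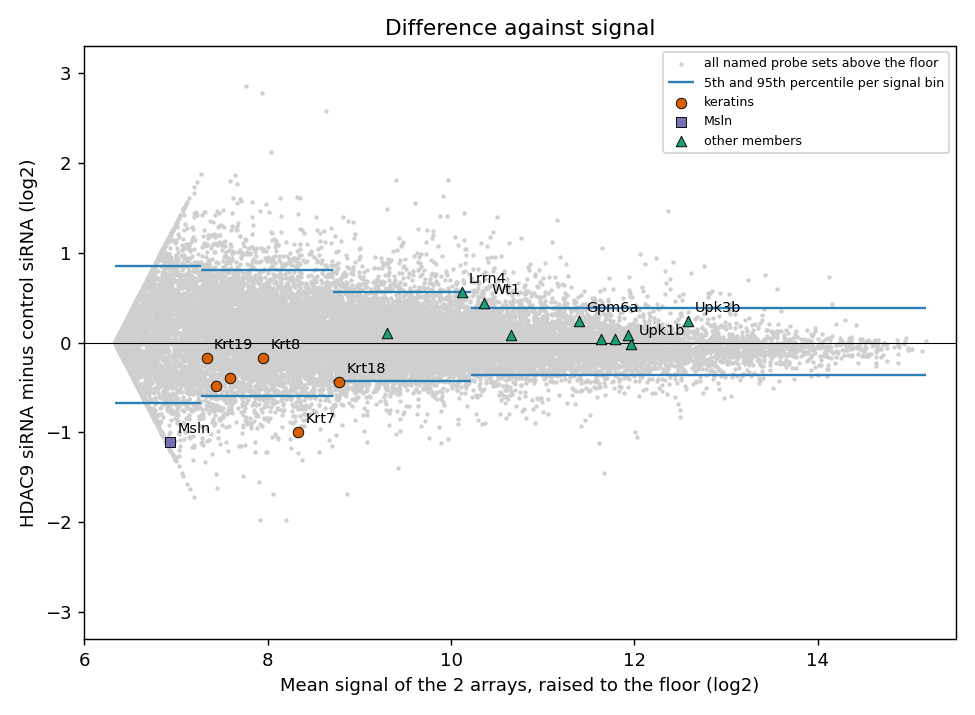
Difference between the arrays (y axis, HDAC9 siRNA minus control siRNA, log2) against mean signal (x axis, log2, after low signals were raised to the floor) for 21955 probe sets (grey), with the 5th and 95th percentiles in each of the 4 signal bins as blue lines. Keratins (orange circles) and Msln (purple square) lie below 0 at the dim end, Krt7 and Msln well under the lower line; the other members (green triangles) lie near or above 0 at mean signals over 9.

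Further genes known from mesothelium were also divided, and here the lower genes were not the dimmest. Of 14 such genes, 12 exceeded the floor on 1 or both arrays; 8 were higher on the HDAC9 siRNA array, 4 lower (7 and 5 after centring) and 0 past 2-fold, with a median of 0.24. The matrix protein gene Efemp1 went from a log2 signal of 10.2 to 11.0 (0.77), and Cdh2, the N-cadherin of mesothelial junctions, from 10.9 to 11.6 (0.64). Tbx18, a T-box factor of embryonic mesothelium, was above background on the HDAC9 siRNA array alone, with a bound of at least 0.54. Muc16, whose product binds mesothelin, was at 7.41 and 7.91 (0.50), opposite in direction to Msln. The tight junction gene Cldn15 had log2 signals of 9.43 and 8.91 (-0.51). Calb2 and Pkhd1l1 were below the floor on both arrays. The shares to read these counts against were 54.1% higher and 45.9% lower over all genes above background as deposited, and 63.0% lower after centring.

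Relatives of the members were mostly undetected. Of 4 other uroplakin genes, Upk1a, Upk3a and Upk3bl were below the floor on both arrays, and Upk2 was above it on the control array alone, with a bound of -0.95. Of 12 other keratin genes, mainly of skin and stratified epithelia, 7 were below the floor on both arrays. Krt10 had log2 signals of 7.82 and 6.97 (-0.85) and Krt6a 7.15 and 6.67 (-0.48). Krt80 was above the floor on the control array alone, with a bound of 2.19-fold lower on the HDAC9 siRNA array. It was the single keratin gene of this list past 2-fold, but that bound is set by the floor of 6.34. Its control signal, 7.47, was below that of Msln, 7.49, and the difference of Msln was short of 2-fold with the higher floor. Krt14 and Krt4 were above the floor of 6.34 on the HDAC9 siRNA array alone, with bounds of 0.20 and 0.08. Of these other keratins 3 were lower and 2 higher as deposited, where 45.9% of all genes were lower. After centring or quantile normalization 4 were above the floor, 3 lower and 1 higher, where 63.0% and 49.5% of all genes were lower. As deposited, the direction of the 3 seen on 1 array alone follows from that array, and Krt10 and Krt6a were the ones measured on both. Lrrn4cl, an Lrrn4-like gene, was at -0.72. Gpm6b, the closest relative of Gpm6a, was at -0.48 by its brighter probe set and at 0.08, as a bound, by the other.

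Genes that anchor keratin filaments differed in both directions. Of 10 genes for desmosomes and plakins, 5 were above background. As deposited 4 were higher, against 54.1% of all genes. After centring, quantile normalization or loess 3 were higher and 2 lower, where 63.0%, 49.5% and 48.0% of all genes were lower. By their brightest probe sets 2 were past 2-fold, both upward, where 1.43% of all genes passed upward and 0.363% downward. After centring 1 passed, upward, where 95 of 12069 genes passed upward and 69 downward. Ppl, which encodes the plakin periplakin, went from 6.58 to 8.03 (2.74-fold higher). It had 1 probe set above background, and its control signal was close to the floor of 6.34, which limits this fold. Plec, the gene of the linker plectin that ties intermediate filaments to adhesion sites, went from 10.1 to 11.2 (2.15-fold higher), and its 3 probe sets had differences from 0.72 to 1.13. The desmosomal cadherin gene Dsg2 was at 0.79, with 5 probe sets from 0.26 to 1.01. Plakophilin gene Pkp2 was lower in each of its 4 probe sets, by 0.37 in the brightest. Its differences ran from -1.24, past 2-fold, to -0.25. Jup was at 0.02, a sign that turned under centring, quantile normalization and loess, and Dsp, the gene of desmoplakin, was below the floor on both arrays.

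WT1 cofactor genes had smaller differences than Wt1. Wtip was at 0.39, while Wtap (-0.10), Basp1 (-0.09) and Pawr (0.03) lay within the scatter of a single probe set. Mesothelial cells can turn into matrix-producing mesenchymal cells, with loss of keratins as one sign, and 9 of 12 genes used to follow that change were above background. Of these, 6 were higher (5 after centring, 7 after loess) and 0 past 2-fold by their brightest probe sets, with a median of 0.37. Over all genes 54.1% were higher as deposited, while 63.0% were lower after centring and 48.0% after loess. The cytokine gene Tgfb1 was at 0.92 by its brightest probe set and -0.19 by its other one. Fn1 (fibronectin) was at 0.73 by the brighter probe set and at 1.05, past 2-fold, by the other. Cdh2 was at 0.64 by the brighter of 2 probe sets and 0.52 by the other, and the transcription factor gene Zeb1 at 0.38, with its 3 probe sets down to -0.03. As deposited 3 genes were lower. Zeb2 was at -0.34, with 5 probe sets from -0.62 to -0.17, and Tgfbr1 at -0.15, with 3 probe sets down to -0.57. Vim, the gene of vimentin, was at -0.01. Snai1, Snai2 and Cdh1 were below the floor on both arrays. Any part of such a change in the keratin differences was not tested.

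**Figure D3:**
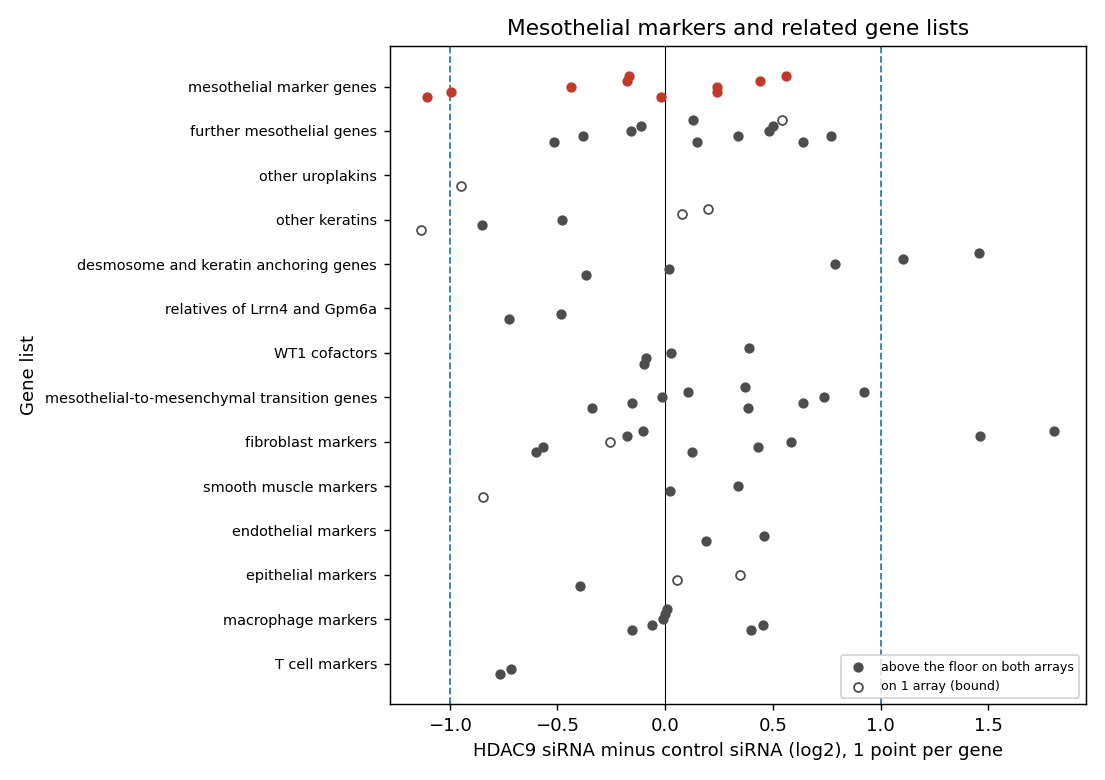
Difference between the arrays (x axis, HDAC9 siRNA minus control siRNA, log2) of each gene above background (1 point per gene, by its brightest probe set) in the mesothelial marker genes (red) and 13 related lists (grey), with open points where 1 signal was at the floor and dashed lines at 2-fold. The mesothelial marker genes spread from -1.11 to 0.56; the points past 2-fold upward are Ppl, Plec, Col1a1 and Col3a1. The B cell list has no gene above background and is not drawn.

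Markers of other cells in the peritoneum were measured beside the mesothelial genes. Of 8 macrophage markers, 7 were above background on both arrays, led by Lyz2 at 14.7 on both and Cd68 at 14.5 and 14.4. Timd4 was below it. The largest differences were those of Gata6 (0.46, with 3 probe sets from 0.46 to 0.74), Icam2 (0.40) and Csf1r (-0.15). In all 4 were higher and 3 lower, against 54.1% and 45.9% of all genes. After centring 2 were higher and 5 lower, where 63.0% of all genes were lower. The summed linear signal of the macrophage markers was 75200 with the control siRNA and 73413 with the HDAC9 siRNA, a ratio of 0.976. The sum of the 10 mesothelial markers, each by its brightest probe set, had a ratio of 1.11 (15777 and 17525). Upk3b, Upk1b and Gpm6a led this sum, with 5650, 4024 and 2480 on the control siRNA array. The highest keratin, Krt18, had 512 there and Msln 180. The ratio thus says little of the dim members: 6 of the 10 genes were lower and 4 higher, with a median of -0.09. Of 11 fibroblast markers, 10 were above background, 5 higher and 5 lower (4 and 6 after centring), with a median of 0.01 (-0.13 after centring). Past 2-fold were 2, both upward, Col1a1 (3.49-fold) and Col3a1 (2.75-fold), where 1.43% of all genes passed upward and 0.363% downward. After centring 2 passed, both upward, where 95 of 12069 genes passed upward and 69 downward. Of the other fibroblast markers, Lum was at 0.58, Postn at -0.60, Fap at -0.56, Pdgfrb at -0.18 and Pdgfra at -0.10. The sums of the fibroblast list had a ratio of 1.34.

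Of 4 smooth muscle markers, Acta2 (0.34) and Tagln (0.02) were above background on both arrays, Cnn1 on the control array alone, with a bound of -0.85, and Myh11 on neither. The ratio of sums was 1.17. Of 6 endothelial markers, Vwf (0.46) and Kdr (0.19) were above background, while Pecam1, Cdh5, Tek and Emcn were below it on both arrays. Of 6 epithelial markers, Cdh1, Cldn7 and Krt20 were below background on both arrays, Epcam and Cldn4 just passed it on the HDAC9 siRNA array alone, and Cldn3 was at -0.39, with 4 probe sets down to -1.14. B cell markers Cd79a, Cd79b and Ms4a1 and the T cell receptor genes Cd3d, Cd3e and Cd3g were below the floor on both arrays; Lat and Thy1 were at -0.77 and -0.72. The part of any of these cell types in the values of the mesothelial genes was not tested.

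**Figure D4:**
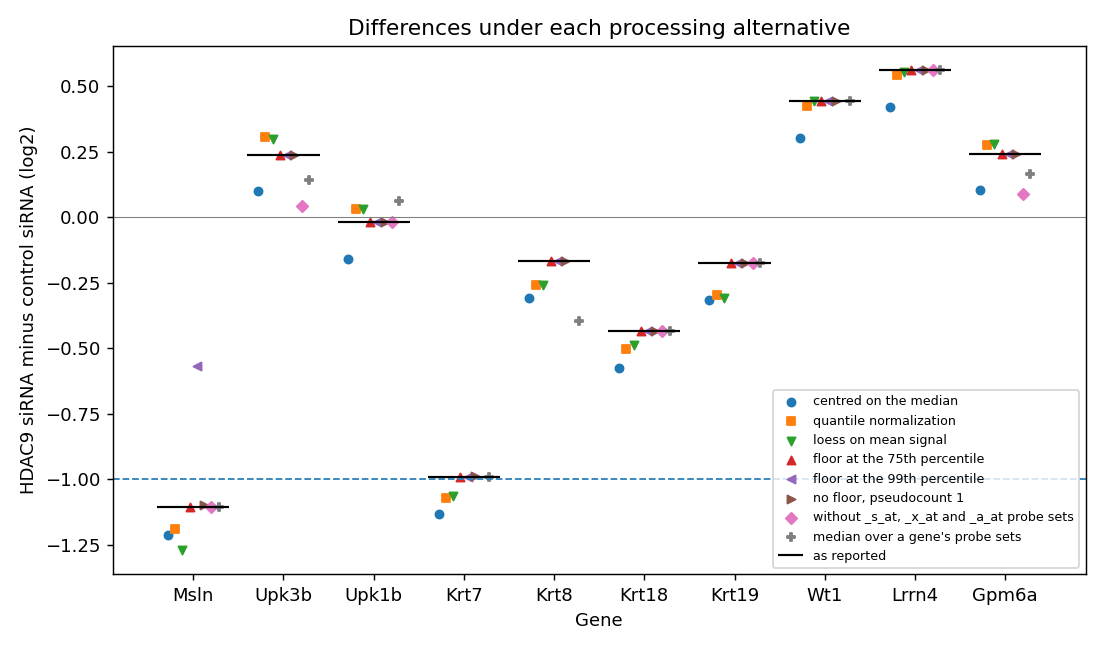
Difference between the arrays (y axis, HDAC9 siRNA minus control siRNA, log2) of each mesothelial marker gene (x axis) as reported (black line) and under each processing alternative (symbols), with a dashed line at 2-fold lower. The 4 keratins and Msln are below 0 and Upk3b, Wt1, Lrrn4 and Gpm6a above 0 under every alternative drawn, while Upk1b lies on both sides of 0; Msln under the higher floor is a bound of -0.57.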

How the data were processed

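Per the labels' protocols, biotin-labelled cRNA from total RNA was hybridised to 2 arrays, 1 per group. The authors deposited log2 signals per probe set; MAS5 is named in the submitters' processing notes without settings or detection calls. The trimmed mean linear signal was 497 on both arrays, so the authors' scaling was kept. Gene names came from the platform annotation (2016); all 186 probe sets of the listed genes matched their RefSeq symbols. The background floor, 6.34, was the 95th percentile of 80 olfactory and vomeronasal receptor probe sets, and lower signals were raised to it before the difference was taken. The brightest probe set by mean signal stood for each gene. All 17 member probe sets were above the floor on both arrays, and 51.4% and 53.6% of all probe sets were. No test was possible; the number of arrays sets the precision. The members, the other 14 lists and the rule for named genes (all members, and from each list genes past 2-fold and up to 4 with the largest differences) were chosen with earlier results of these data known; other genes were named after their values were seen. The steps were tested on simulated data with shifts put only on genes well above the floor, so dim members such as Msln were not covered. Python 3.11.15, pandas 2.3.3 and statsmodels 0.14.6 (loess, span 0.3) were used. The alternatives were centring, quantile normalization, loess, a lower (75th percentile) or higher (99th percentile) floor, a pseudocount of 1 in place of a floor, leaving out _s_at, _x_at and _a_at probe sets, the median over probe sets, and thresholds of 1.5-fold and 3-fold.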

Additional observations from a re-analysis of the deposited data

How the results depend on the processing

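No paired analysis was possible because each group has 1 array. Of 77 alternative values of single members, 76 stayed within the scatter of a single probe set. The other was Msln at -0.57, a bound, under the higher floor (99th percentile). The sign changed in 3, all of Upk1b (at most 0.06). Many of the 77 could not move, so the count of 76 is a limited check. All member signals lay above the lower floor, and only Msln fell below the higher one. A gene with 1 probe set keeps its value when the median over probe sets is taken. The count of members and of member probe sets at least 2-fold lower, 1 in each case, was 2 (Msln and Krt7) after centring, quantile normalization, loess and at 1.5-fold, and 0 with the higher floor and at 3-fold; none was higher under any of these settings (0). The median over the members, -0.09, ranged from -0.23 to -0.02 over 8 alternatives. Krt7, Krt8 and Wt1 have no value without _s_at, _x_at and _a_at probe sets. Centring moved the median of all genes by -0.13, and past 2-fold, upward and downward, were 173 and 44 genes as deposited, 95 and 69 after centring, 114 and 54 after quantile normalization and 110 and 63 after loess. Signal close to the floor limits Msln, which lay 0.05 above it on the HDAC9 siRNA array.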
